A study of Mus musculus with 4 samples.

Results

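The Migratory cells were the CD4+ T cells of the small intestine that the deposited cell table names with the identity Migratory, a population described by the study as migratory and stem cell-like. Members were taken by that name alone, which gave 972 of 5080 cells. The table holds 4 libraries of sorted YFP+CD4+ T cells from 7- to 8-month-old mice, and all groups carried Il17a-cre and a Rosa26-stop-YFP reporter, so that YFP marks cells that have expressed Il17a at some time. In TGFbR-KO mice (1 library) the cre also deleted floxed alleles of Tgfbr2, the type II TGFβ receptor, in TGFbR-CA mice (1 library) it released a constitutively active form of Tgfbr1 from a floxed stop cassette, and TGFbR-WT mice (2 libraries) carried neither. Each library came from a pool of mice, so the spread between animals is not seen. Because recombination follows Il17a expression, the alleles changed only in cells that had passed through it, and γδ T cells, which can also express Il17a, were removed from the table by the authors. The γδ T cell markers were at or near 0 here, as described below.

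Of the 972 Migratory cells, 831 were TGFbR-KO, 89 were TGFbR-WT and 52 were TGFbR-CA. The names of the TGFbR-WT cells form a larger set of 709 cells and a smaller set of 298 cells that could not be matched to the 2 TGFbR-WT libraries, so they are given as technical sets and not as replicates. With 1 library of each mutant no difference between conditions has a replicate check, and no p-value is given anywhere. The clusters were also made from the same genes that are described, so a gene higher in Migratory cells is a description of the cluster and not a test.

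T cells that leave a tissue follow sphingosine-1-phosphate, a lipid that is abundant in blood and lymph, through the receptor S1PR1. The transcription factor KLF2 switches on S1pr1 and several adhesion genes in quiescent T cells, and the early activation protein CD69 pulls S1PR1 off the cell surface. Long-lived T cells depend on interleukin-7, read through IL7R, and T cells with stem-like properties commonly express the transcription factor TCF1, encoded by Tcf7.

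Levels are given as corrected UMIs per 10000, that is the gene's molecule counts after the authors' depth correction, summed over the cells of a group and divided by all corrected UMIs of the group. Ratios were taken after 0.1 was added to both levels, and a gene was called higher or lower where the levels differed by at least 1.5 times. Migratory cells had a median of 4004 corrected UMIs in TGFbR-KO cells, 3788 and 4379.5 in the larger and smaller TGFbR-WT sets, and 4123.5 in TGFbR-CA cells. A level of 1 per 10000 rested on 328 corrected UMIs in TGFbR-KO Migratory cells, on 33.8 in TGFbR-WT and on 21.5 in TGFbR-CA, and on only 6.76 in the 16 cells of the smaller TGFbR-WT set. The values of the 2 smaller groups are therefore much less certain, and a gene is described by them only together with the TGFbR-KO value. Barcodes that also occurred in another set were found in 2 of the TGFbR-KO Migratory cells and in none of the others.

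The Migratory identity was the most frequent one among TGFbR-KO cells. It held 27.9% of them (831 of 2975; 95% exact interval 26.3 to 29.6), 8.84% of TGFbR-WT cells (89 of 1007; 7.16 to 10.8) and 4.74% of TGFbR-CA cells (52 of 1098; 3.56 to 6.16). The TGFbR-KO share was 3.16 times the TGFbR-WT share and 5.9 times the TGFbR-CA share. The 2 TGFbR-WT sets differed between themselves, at 10.3% (73 of 709; 8.16 to 12.8) and 5.37% (16 of 298; 3.1 to 8.57), and both stood below the TGFbR-KO share. These intervals cover counting error only, the spread between mice is unknown, and a share of 1 identity also falls when another identity grows.

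The label was checked against its 5 markers, which are also genes of the clustered cells. S1pr1 (chromosome 3, 115710433 to 115715072, minus strand, mm10) had a level of 2.62 in TGFbR-KO Migratory cells against 0.57 in the other TGFbR-KO cells, 3.87 against 0.506 in TGFbR-WT, and 2.84 against 0.348 in TGFbR-CA. It was 4.06, 6.56 and 6.57 times higher, although in TGFbR-CA it fell under the level of 0.5 over all cells that a gene needed to be compared. Klf2 (chromosome 8, 72319033 to 72321656) was at 10.5 against 4.92 in TGFbR-KO, at 9.11 against 0.852 in TGFbR-WT and at 7.69 against 0.513 in TGFbR-CA. Migratory levels of Klf2 were thus close to each other in the 3 conditions, while the other cells differed, with 5.27 times more Klf2 in TGFbR-KO than in TGFbR-WT. Among TGFbR-KO identities the highest Klf2 level, 13.5, was in Tumorigenic cells, followed by Migratory cells and by Pre-tumorigenic cells at 8.09. Without these 2 identities among the others, a comparison added after the data were seen, Klf2 was 4.23 times higher in TGFbR-KO Migratory cells in place of 2.11 times.

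Itga4, the α4 integrin chain used for entry into gut and inflamed tissue (chromosome 2, 79255426 to 79333123), was at 6.31 against 2.84 in TGFbR-KO, 7.27 against 3.28 in TGFbR-WT and 10.3 against 2.88 in TGFbR-CA. Il7r (chromosome 15, 9505788 to 9530176, minus strand) was at 13.3 against 4.61, at 14.4 against 4.58 and at 8.1 against 2.82 in the same order. Emp3, a small membrane protein gene (chromosome 7, 45918023 to 45921404, minus strand), was at 6.81 against 3.36, at 5.59 against 1.63 and at 5.08 against 1.29. All 5 markers were higher in Migratory cells in each condition and in both TGFbR-WT sets, where the smallest of the ratios was 1.8 (Itga4 in the smaller set). Emp3 did not set Migratory cells apart from all identities of TGFbR-KO, since Cycling cells had 7.19 and Tumorigenic cells 7.09. S1pr1 and Il7r did, at 3.12 and 2.09 times the next highest identity, which was TR-TFH for S1pr1 and Activated for Il7r.

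Single cells carried several markers at once. At least 4 of the 5 were detected in 64.4% of TGFbR-KO Migratory cells and in 13% of the other TGFbR-KO cells. The shares were 65.2% against 5.12% in TGFbR-WT and 55.8% against 3.15% in TGFbR-CA. In TGFbR-KO, 3 of 831 Migratory cells had none of the 5. S1pr1 itself was detected in 53.8% of TGFbR-KO Migratory cells, 61.8% of TGFbR-WT and 53.8% of TGFbR-CA, and no S1pr1 UMI was found in the remaining Migratory cells. GC-TFH cells, which as germinal centre cells should have little S1pr1, showed a UMI in 9.43%, 6.53% and 3.42%, at median depths of 3826.5, 3728 and 4092 corrected UMIs against 4004, 3841 and 4123.5 in Migratory cells.

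**Figure D1:**
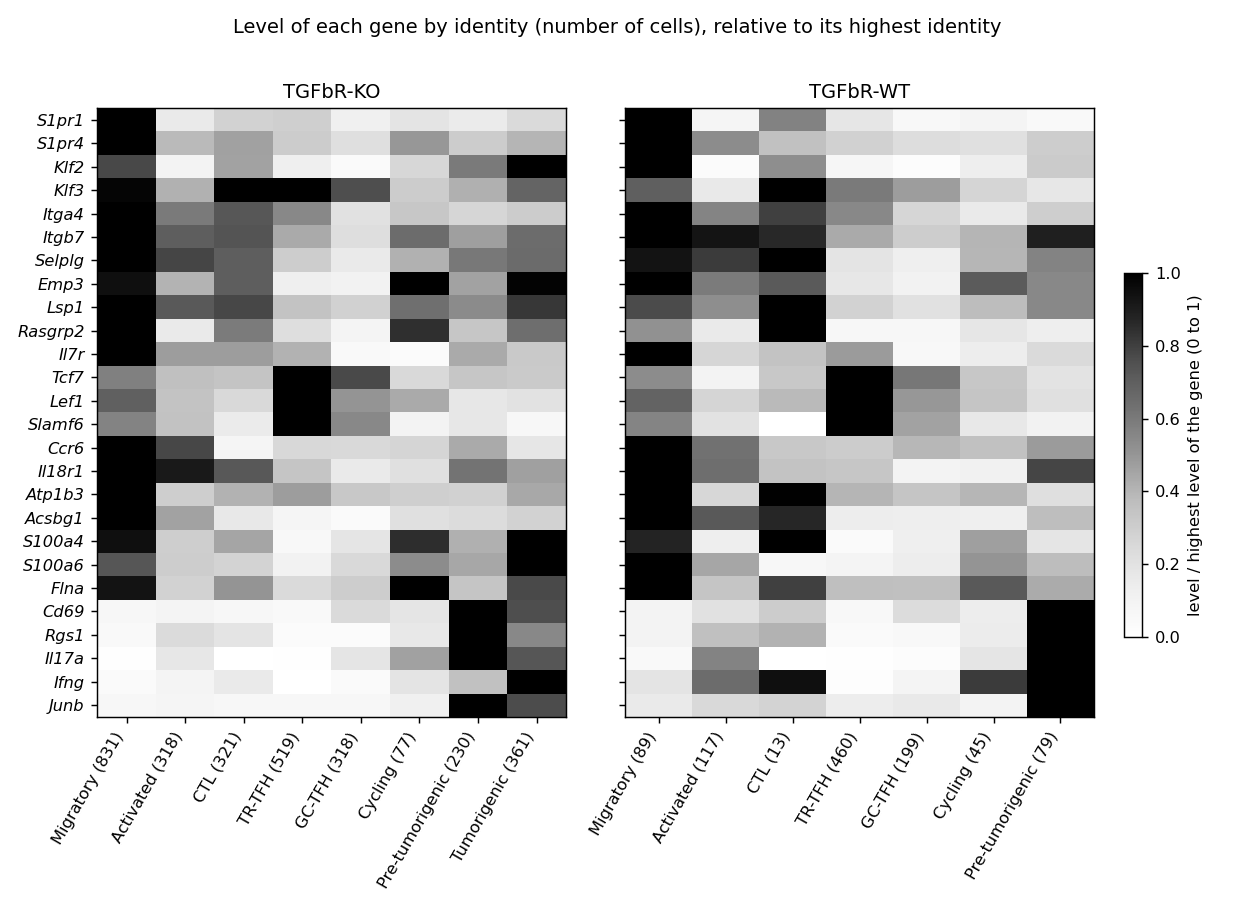
Level of 26 genes in each identity of TGFbR-KO cells (left) and TGFbR-WT cells (right, identities of at least 10 cells), divided by the gene's highest identity, from white (0) to black (1), with the number of cells in brackets. S1pr1, S1pr4, Itga4, Il7r and Ccr6 were darkest in Migratory cells of TGFbR-KO, while Tcf7, Lef1 and Slamf6 were darkest in TR-TFH cells of both conditions.

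The sorted T cell type was borne out by its genes. Cd3e was detected in 97.1% of TGFbR-KO Migratory cells, 96.6% of TGFbR-WT and 98.1% of TGFbR-CA, Trac, which encodes the α chain constant region of the T cell receptor, in 95.9%, 94.4% and 92.3%, and Cd4 in 74%, 68.5% and 57.7%. Cd8a was detected in 0 of 831, 0 of 89 and 0 of 52 Migratory cells, which allows shares of cells with a UMI of up to 0.361%, 3.37% and 5.77% and sets no limit on cells that express the gene. Summed levels of the 9 γδ T cell markers in the table were between 0 and 0.0244 and those of the 17 epithelial markers between 0.235 and 0.384. The authors had removed γδ T and epithelial cells beforehand, so these low levels are no check of the sort. The 10 B cell markers summed to 0.244 in TGFbR-KO, 0.917 in TGFbR-WT and 1.26 in TGFbR-CA, of which Ighm made 0.061, 0.562 and 0.932, and were lower than in the other cells of each condition, where they reached 1.85 to 2.61. Myeloid markers summed to 1.95 to 2.38, nearly all of it Cst3, and Lyz2 was at 0.0213, 0 and 0. Foxp3, the factor of regulatory T cells, was detected in 2 of 831, 1 of 89 and 0 of 52 cells, the last of which allows a share of cells with a UMI of up to 5.77%. Tgfbr2, the gene deleted in TGFbR-KO mice, had a level of 1.93 in TGFbR-KO Migratory cells, 2.28 in TGFbR-WT and 2.05 in TGFbR-CA, but libraries made from the 3′ end of transcripts do not check the loss of floxed exons.

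Over all genes compared, 94 of 2902 genes were higher in Migratory cells than in the other cells of TGFbR-KO (3.24%) and 147 were lower (5.07%). In TGFbR-WT, 173 of 3262 were higher (5.3%) and 307 lower (9.41%), and in TGFbR-CA 156 of 3052 were higher (5.11%) and 353 lower (11.6%). The larger counts came with the smaller numbers of Migratory cells. Of 2631 genes compared in all 3 conditions, 38 were higher in each (1.44%) and 47 were lower in each (1.79%).

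Ranked by the weakest of their ratios in the 3 conditions, the 12 highest genes included Il7r, Itga4 and Emp3. Others were the sodium pump subunit gene Atp1b3, the chemokine receptor gene Ccr6 and the ion channel-like genes Tmem176a and Tmem176b. The list also held the actin crosslinker gene Flna, the interleukin-18 receptor gene Il18r1 and the P-selectin ligand gene Selplg. The remaining genes were the calcium-binding protein gene S100a6 and the integrin gene Itgb7. Atp1b3 was at 5.06 against 1.93 in TGFbR-KO, 5.03 against 1.81 in TGFbR-WT and 3.73 against 1.29 in TGFbR-CA. Ccr6, whose product binds CCL20 and is typical of Th17 cells, was at 3.26 against 1.01, 3.67 against 1.42 and 4.01 against 1.19. The 12 genes were higher by between 1.84 and 2.84 times in TGFbR-KO except Ccr6 at 3.01 times. All were also higher in both TGFbR-WT sets taken alone. They were picked by ratios that include those of all TGFbR-WT cells, so agreement between conditions or sets is not a finding. S100a6 was the most uneven, at 5.04 times in the larger and 2.23 times in the smaller set.

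Ranked in the same way, the 12 lowest genes began with Il17a, the phosphatase gene Dusp1, the histone demethylase gene Kdm6b and the interferon-stimulated gene Isg15. They also held the stress gene Gadd45b, the transcription factor genes Ikzf2 and Jund, and the chaperone genes Hspa5 and Hspa1b. The remaining genes were the adaptor gene Samsn1, the tubulin gene Tuba1b and the RNA-binding protein gene Zfp36l1. That ranking fixed their direction in each condition. Il17a, the gene whose expression marked the cells, was at 0.0549 against 2.64 in TGFbR-KO, 0.71 against 2.94 in TGFbR-WT and 0.233 against 2.41 in TGFbR-CA. It was detected in 18 of 831, 7 of 89 and 4 of 52 Migratory cells. The TGFbR-WT sets differed in size of the ratio, with 0.148 against 6.06 in the smaller set (0.0403) and 0.85 against 1.35 in the larger set (0.657). Hspa1b and its near-identical copy Hspa1a can share reads, so neither value is certain alone. Samsn1 was not lower in the smaller TGFbR-WT set (1.63 against 1.45). Of these 12 genes, Dusp1, Hspa1b and Jund were no longer 1.5 times lower in TGFbR-KO when Tumorigenic and Pre-tumorigenic cells were left out of the others, at ratios of 1.07, 1.16 and 0.806, while Il17a stayed at 0.157.

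**Figure D2:**
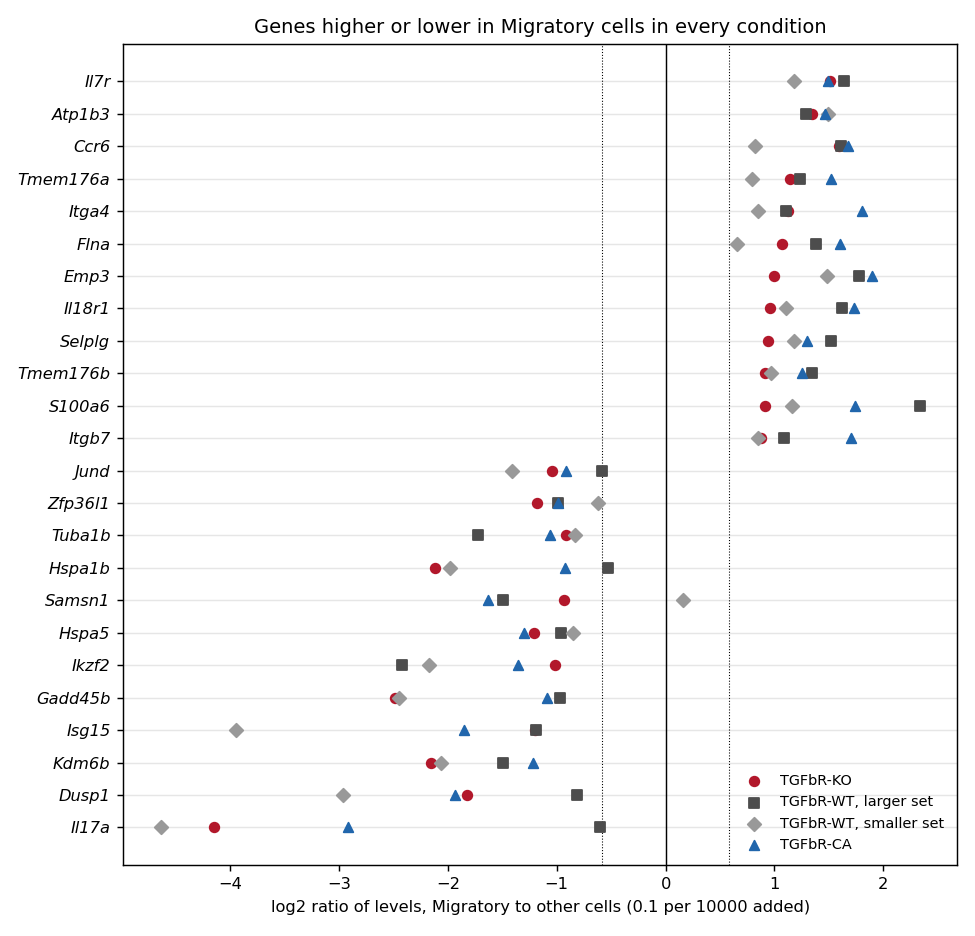
log2 ratio of levels between Migratory and other cells for the 12 genes highest and 12 lowest by their weakest condition, in TGFbR-KO, both TGFbR-WT sets and TGFbR-CA; the solid line marks no difference and the dotted lines 1.5 times. The 12 upper genes lay right of the dotted line in all 4 groups of cells, and Samsn1 in the smaller TGFbR-WT set lay right of the solid line. The ranking itself fixed the direction in each condition.

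The list of egress and lymphoid homing genes holds 4 of the markers (S1pr1, Klf2, Itga4 and Emp3), so its counts are not independent of them. In TGFbR-KO, 9 of its 16 compared genes were higher, these 4 among them, and 1 was lower, with a median log2 ratio of 0.84 against 0.02 over all genes compared. The counts were 8 higher, with the same 4 markers, and 2 lower of 15 in TGFbR-WT (median 0.92 against −0.04), and 8 higher, with 3 of the markers, and 2 lower of 14 in TGFbR-CA (1.08 against −0.07). S1pr4, a second sphingosine-1-phosphate receptor gene, was at 2.13 against 0.749, 1.69 against 0.52 and 2.1 against 0.549. Selplg was at 4.12 against 2.1 in TGFbR-KO, and Itgb7, which pairs with α4 to bind the gut vessel protein MAdCAM-1, at 6.5 against 3.48. Lsp1, an actin-binding protein gene of moving leukocytes, was at 13.3 against 7.59. Rasgrp2, the activator of RAP1 that primes integrins, was at 1.03 against 0.366 in TGFbR-KO and at 1.03 against 0.204 and 0.885 against 0.0912 in TGFbR-WT and TGFbR-CA, where its overall level was too low to be compared. Gpr183, an oxysterol receptor gene, was lower in TGFbR-KO (2.43 against 4.27) and TGFbR-WT (3.08 against 5.3). Cxcr4 was lower in TGFbR-WT (0.384 against 1.19) and TGFbR-CA (0.512 against 0.916), and the integrin gene Itgal was lower in TGFbR-CA (2.14 against 3.87).

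Of the lymph node entry genes, the chemokine receptor gene Ccr7 was detected in 2.65% of TGFbR-KO Migratory cells against 3.92% of the other cells and 2.52% of GC-TFH cells.

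Of the stemness and quiescence list, Il7r alone was higher in TGFbR-KO and in TGFbR-WT. In TGFbR-KO, 1 of 13 compared genes was higher and none lower (median 0.05 against 0.02 over all genes), in TGFbR-WT 1 of 17 was higher and 3 were lower, and in TGFbR-CA 4 of 15 were higher and 3 lower. Tcf7 was at 0.933 against 0.9 in TGFbR-KO, 1.33 against 1.69 in TGFbR-WT and 1.68 against 2.6 in TGFbR-CA, so that it was close to the other cells in TGFbR-KO and lower in TGFbR-CA. Lef1, the related factor gene, was at 1.18 against 0.8, 1.42 against 1.42 and 1.96 against 1.14, and Slamf6 at 1.37 against 1.04, 1.77 against 2.01 and 1.58 against 1.62. In TGFbR-KO all 3 genes were highest in TR-TFH cells, with 1.62 for Tcf7, 1.71 for Lef1 and 2.44 for Slamf6, and Migratory cells came below them. Against Activated TGFbR-KO cells, Tcf7 was 1.5, Lef1 1.86 and Slamf6 1.55 times higher in Migratory cells. Cd27 was lower in TGFbR-WT (0.177 against 1.28) and TGFbR-CA (0.699 against 1.55), and Bcl2, which protects T cells from death, was higher in TGFbR-CA (1.49 against 0.617).

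Among S100, annexin, galectin and actin regulator genes, 7 of 28 were higher and none lower in TGFbR-KO, 12 of 26 were higher and none lower in TGFbR-WT, and 12 of 26 were higher and 1 lower in TGFbR-CA. S100a4 was at 11.9 against 5.03 in TGFbR-KO, 8.43 against 1.24 in TGFbR-WT and 4.1 against 0.701 in TGFbR-CA. S100a10 was at 23.7 against 14.1, 19.3 against 11.9 and 18.4 against 10, and the annexin gene Anxa6 at 3.19 against 1.96, 3.55 against 0.937 and 2.24 against 0.595. The galectin gene Lgals1 was higher in TGFbR-WT (9.73 against 4.75) and TGFbR-CA (7.41 against 2.87) and at 13 against 10 in TGFbR-KO. Tumorigenic TGFbR-KO cells had as much or more of several of these genes (S100a4 12.5, S100a6 19), and without Tumorigenic and Pre-tumorigenic cells among the others 14 of the 28 genes were higher in TGFbR-KO in place of 7.

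Tissue residence genes did not move one way. Cd69 was lower in each condition, at 0.454 against 2.33 in TGFbR-KO, 0.621 against 1.36 in TGFbR-WT and 0.326 against 0.866 in TGFbR-CA, and was detected in 13.7%, 14.6% and 9.62% of Migratory cells against 24.8%, 27.6% and 23.6% of GC-TFH cells. Rgs1, a brake on chemokine receptor signalling, was at 0.921 against 5.24, 2.6 against 4.8 and 3.59 against 4.9. The residence integrin gene Itgae was detected in 1.2% of TGFbR-KO Migratory cells, and the gut homing receptor gene Ccr9 was at 3.3 against 3.11 in TGFbR-KO. In all, 4 of 10 compared genes were lower and 1 was higher in TGFbR-KO, 4 were lower and 2 higher of 10 in TGFbR-WT, and 3 were lower and 2 higher of 10 in TGFbR-CA. In TGFbR-KO Cd69 was low in several identities, with 0.358 in TR-TFH, 0.512 in CTL and 0.654 in Activated cells, and high in Pre-tumorigenic (7.4) and Tumorigenic cells (5.63).

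Th17 genes went both ways, with Ccr6, Tmem176a and Tmem176b higher and Il17a, Il22 and Hif1a lower in each condition. In TGFbR-KO, 4 of 15 compared genes were higher (Ccr6, Il17re, Tmem176a and Tmem176b) and 5 were lower (Il17a, Il17f, Il22, Irf4 and Hif1a). In TGFbR-WT 5 of 17 were higher and 7 lower, and in TGFbR-CA 5 of 15 were higher and 7 lower. Il22 was at 0.82 against 9.13 in TGFbR-KO, 0.355 against 1.11 in TGFbR-WT and 0.14 against 0.878 in TGFbR-CA. Il17re, a receptor chain gene for IL-17C, was at 1.22 against 0.535 and 1.45 against 0.473 in TGFbR-KO and TGFbR-WT. Of the interleukin receptor chains, Il7r and Il18r1 were higher in each condition, and the cytokine receptor gene Il6st was lower in TGFbR-WT (0.148 against 0.973) and TGFbR-CA (0.279 against 0.986).

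Cytotoxic and TFH genes were low, and 5 Th1 genes were lower in TGFbR-KO. In TGFbR-KO, 6 of 7 cytotoxic genes were lower, with Gzma at 0.488 against 3.09, Gzmb at 0.405 against 1.66 and Nkg7 at 0.82 against 4.5. Both granzymes were at 0 in the Migratory cells of TGFbR-WT and TGFbR-CA. Of 11 Th1 genes in TGFbR-KO, 5 were lower, with Ifng at 0.835 against 5.63 and Ccl5 at 0.762 against 27.1, and Il18r1 was higher. In TGFbR-WT 2 of 8 Th1 genes were higher (Il18r1 and Runx3) and none lower, and in TGFbR-CA the same 2 of 5 were higher and 1 was lower. The summed level of the Th1 genes was 14.8 against 48.6 in TGFbR-KO but 13.4 against 9.81 in TGFbR-WT and 11.8 against 8.03 in TGFbR-CA. Among TGFbR-KO identities Ccl5 was at 124 in CTL and 44.4 in Tumorigenic cells and Ifng at 3.44 and 21.5, and these identities had 321 and 361 cells in TGFbR-KO, 13 and 5 in TGFbR-WT and 3 and 2 in TGFbR-CA. TFH genes were lower in each condition, 5 of 7 in TGFbR-KO, 9 of 12 in TGFbR-WT and 7 of 12 in TGFbR-CA. Pdcd1 was at 0.226 against 1.05, 0.503 against 1.9 and 0.233 against 3.18, and Cxcr5, the follicle homing receptor gene, was detected in 0.602%, 3.37% and 3.85% of Migratory cells and in 39.3%, 49.7% and 56.3% of GC-TFH cells. Cell cycle genes were lower in 2 of 8 cases in TGFbR-KO (Mki67 and Top2a), 5 of 10 in TGFbR-WT and 0 of 5 in TGFbR-CA.

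Counts of activation and stress genes depended on which cells were compared. In TGFbR-KO, 16 of 17 immediate early and heat shock genes were lower, with Junb at 4.78 against 23.5 and Fos at 1.61 against 5.12, and 14 of 17 activation and TCR signal genes were lower, with Nr4a1 at 0.0762 against 2.89 and Ctla4 at 0.765 against 4.5. In TGFbR-WT the counts were 8 of 16 and 6 of 13, and in TGFbR-CA 11 of 16 and 5 of 12, with none higher. The summed level of the immediate early and heat shock genes was 55.9 in Migratory TGFbR-KO cells, 57.5 in TR-TFH, 59.2 in CTL and 62.4 in Activated cells, but 234 in Tumorigenic and 514 in Pre-tumorigenic cells. When those last 2 identities were left out, 0 of 17 of these genes were lower in TGFbR-KO, 0 of 16 in TGFbR-WT, where 1 was higher, and 3 of 16 in TGFbR-CA. Of the activation and TCR signal genes, 10 of 17 were lower in TGFbR-KO, 4 of 13 in TGFbR-WT and 4 of 12 in TGFbR-CA in that comparison. The egress counts hardly moved in that comparison, with 9 higher of 16 in TGFbR-KO and 8 of 15 in TGFbR-WT.

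**Figure D3:**
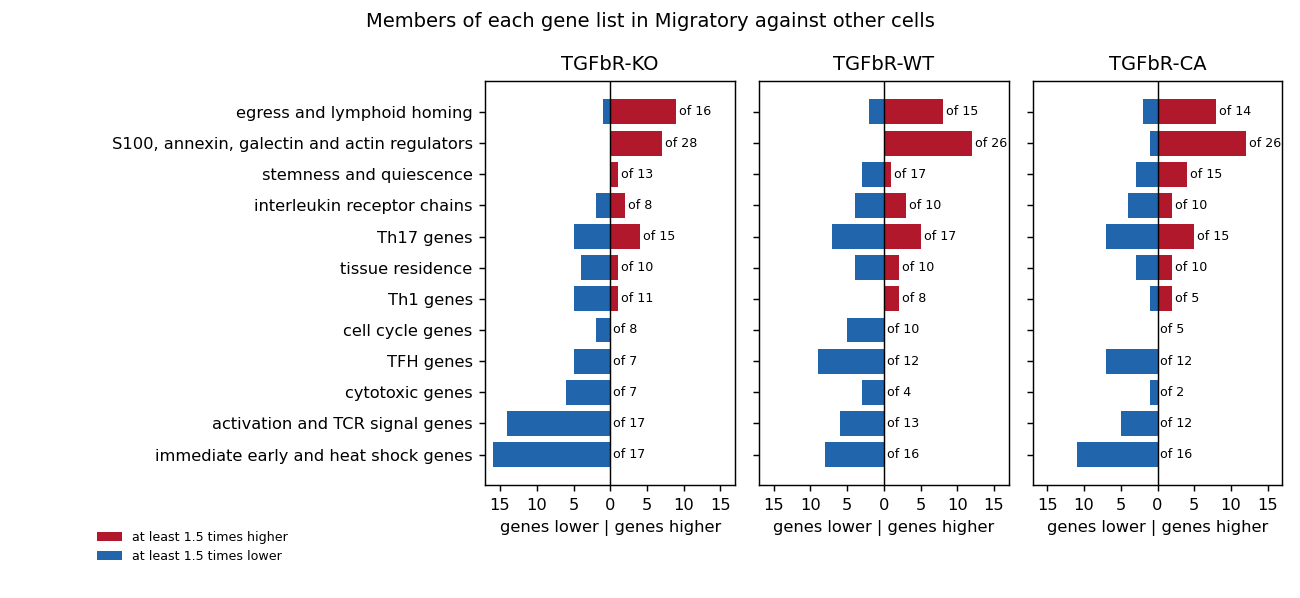
Number of compared genes of each list that were at least 1.5 times higher (red, to the right) or lower (blue, to the left) in Migratory cells than in the other cells of the condition, with the number compared beside each bar. Egress and S100 and actin genes pointed right and TFH, activation and immediate early genes left in each condition; the 16 lower immediate early and heat shock genes of TGFbR-KO fell to 0 without Tumorigenic and Pre-tumorigenic cells.

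Ribosomal protein genes took 29.5% of corrected UMIs in Migratory cells against 27.2% in the others of TGFbR-KO, 26.4% against 23.6% in TGFbR-WT and 26.3% against 23.5% in TGFbR-CA. Transcripts encoded by the mitochondrial genome took 0.95% against 1.19%, 0.987% against 1.26% and 0.511% against 0.681%. Both shifts had the same direction in all 3 conditions, and their part in the ratios of other genes was not tested.

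Set beside single identities over the compared genes, TGFbR-KO Migratory cells were most like Activated cells, with a Spearman correlation of levels across 2902 genes of 0.916, followed by CTL (0.9) and TR-TFH (0.856). In TGFbR-WT the order was Activated (0.826), Pre-tumorigenic (0.818) and TR-TFH (0.812), and in TGFbR-CA it was TR-TFH (0.835) and Activated (0.824). The points are genes of the same libraries, and groups of fewer cells give lower values, so neighbouring values in these orders are not told apart. Against Activated cells of TGFbR-KO, Migratory cells had 7.47 times more Klf2, 5.26 times more S1pr1, 4.28 times more Rasgrp2 and 3.13 times more S100a4, and less Ctla4 (0.765 against 4.5), Rgs1 (0.921 against 4.39), Ccr9 (3.3 against 10.2) and Maf (9.66 against 21.5). Ccr6, Il18r1, Tmem176a and Ly6a, the gene of the surface protein Sca-1, differed little between the 2 identities, by ratios of 1.27, 1.09, 0.914 and 0.919. Against TR-TFH cells of TGFbR-KO, Migratory cells had 14.7 times more S100a4, 7.77 times more Ccr9, 5.72 times more Klf2 and 3.67 times more Ccr6, and less Cd27 (0.0396 against 1.33). In TGFbR-KO, 165 of 1464 genes with a level of at least 1 in Migratory cells were highest there, and 10 of these exceeded the next identity by at least 1.5 times. Those with the largest margins were S1pr1, the fatty acid ligase gene Acsbg1 (3.25 against 1.49 in Activated cells), Il7r, Atp1b3, S1pr4, the adducin gene Add3, the RAP1 and RAS regulator gene Rasa3 and the scaffold gene Iqgap2.

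Migratory cells were then divided by whether an S1pr1 UMI was detected. In TGFbR-KO 447 cells had one and 384 did not, with median depths of 4043 and 3956.5 corrected UMIs, in TGFbR-WT 55 and 34, and in TGFbR-CA 28 and 24. Of 1463 genes with a level of at least 1 in TGFbR-KO Migratory cells, 7 were higher with S1pr1 (0.478%) and 1 was lower (0.0684%). The kinase gene Stk38 was at 1.83 with and 0.982 without S1pr1 in TGFbR-KO, 2.47 and 1.44 in TGFbR-WT and 4.01 and 1.74 in TGFbR-CA. Klf2 was at 12.5 and 8.08 in TGFbR-KO, 12.3 and 4.03 in TGFbR-WT and 9.9 and 5.02 in TGFbR-CA. Rasgrp2 was at 1.29 and 0.723, 1.45 and 0.38, and 1.45 and 0.205. These genes and Rasa3, Atp1b3 and Acsbg1 were picked among genes with 1 direction in all 3 conditions, so that agreement is not a finding. In TGFbR-KO they were higher in cells with S1pr1 by 1.5 to 1.79 times. The integrin gene Itga4 was 1.56 times higher with S1pr1 in TGFbR-KO and 1.47 times in TGFbR-WT, but at a ratio of 0.929 in TGFbR-CA. Il7r was almost equal in TGFbR-KO cells with and without S1pr1 (13.4 and 13.2), as was Tcf7 (0.999 and 0.856). The gene called lower was the creatine kinase gene Ckb, at 0.993 with and 1.68 without S1pr1 in TGFbR-KO and 1.02 and 2.74 in TGFbR-WT, and nearly equal in TGFbR-CA (0.939 and 1.03). Of 15 genes of the egress list, 3 were called higher and 0 lower in TGFbR-KO (median log2 ratio 0.27 against −0.01 over all genes). The counts were 5 and 0 in TGFbR-WT (0.46 against 0.05), and 7 and 3 in TGFbR-CA (0.29 against 0.03). The share called over all genes is given for TGFbR-KO only. The counts from the few cells of TGFbR-WT and TGFbR-CA are therefore not read as a result about the list.

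**Figure D4:**
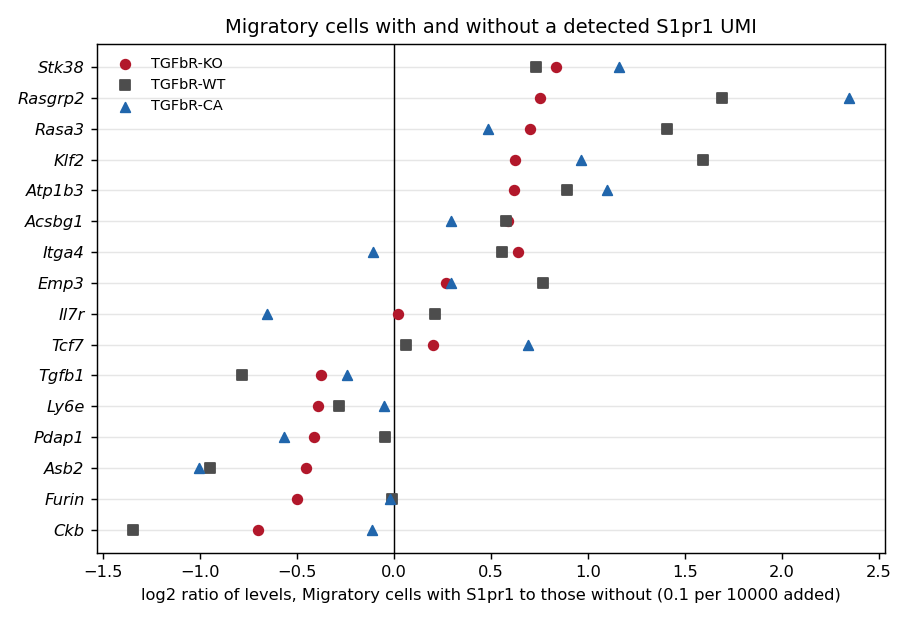
log2 ratio of levels between Migratory cells with and without a detected S1pr1 UMI, for the 6 highest and 6 lowest genes with 1 direction in all conditions and for Itga4, Emp3, Il7r and Tcf7, in TGFbR-KO, TGFbR-WT and TGFbR-CA. Stk38, Rasgrp2, Rasa3, Klf2, Atp1b3 and Acsbg1 lay right of 0 in all 3 conditions, as the rule that picked them required. Il7r lay close to 0 in TGFbR-KO and left of it in TGFbR-CA.

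KLF2 belongs to a family of factors that bind CACCC-type sequences, so the stretch of 250 bases before each RefSeq transcript start was searched for CCACNCCC on both strands. A RefSeq promoter on GRCm38.p6 was matched for 4 of the 5 markers, and 2 of the 4 held the motif. The Itga4 stretch (chr2:79255176-79255425, plus strand) and 1 Emp3 stretch (chr7:45920850-45921099, minus strand) are shown because they are the marker promoters with a match, 5′ to 3′ on the strand of the gene with the matches in capitals.
Itga4: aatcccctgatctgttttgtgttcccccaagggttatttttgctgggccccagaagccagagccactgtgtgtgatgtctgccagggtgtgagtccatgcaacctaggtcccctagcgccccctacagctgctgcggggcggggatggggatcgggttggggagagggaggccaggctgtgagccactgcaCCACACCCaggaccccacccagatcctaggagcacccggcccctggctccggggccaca
Emp3: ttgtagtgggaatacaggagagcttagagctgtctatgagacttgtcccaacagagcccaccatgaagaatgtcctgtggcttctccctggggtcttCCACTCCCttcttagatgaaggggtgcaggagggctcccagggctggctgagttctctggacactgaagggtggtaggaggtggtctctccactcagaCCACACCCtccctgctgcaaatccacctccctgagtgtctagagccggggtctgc
Itga4 had 1 match and this Emp3 stretch 2. The latter belongs to a RefSeq start that lies inside Emp3 as placed above, and the stretch of the other Emp3 start (chr7:45921427-45921676) held none. The promoters given for Il7r and Klf2 held none. The motif was in 17.9% of all 27025 genes with such a stretch, in 23.3% of the 2107 compared in all 3 conditions, in 33.3% (10 of 30) of those higher in Migratory cells in all 3 and in 31.6% (12 of 38) of those lower in all 3. Genes higher and genes lower thus held it about equally often, and a match is a match of letters only.

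Migratory cells of the mutant mice were last compared with those of TGFbR-WT mice, over genes with a mean level of at least 1. In TGFbR-KO, 23 of 1552 genes were higher (1.48%) and 93 lower (5.99%), and in TGFbR-CA 77 of 1556 were higher (4.95%) and 171 lower (11%). The median log2 ratio of all genes was −0.05 for TGFbR-KO and −0.09 for TGFbR-CA. Each mutant is 1 library, the mutants were sequenced in different runs, and both are set against the same 89 cells, so genotype and library cannot be told apart.

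Among genes around TGFβ signalling, Smad7 and Ski were lower in TGFbR-KO Migratory cells. Smad7, an inhibitor that TGFβ itself induces, was at 0.646 in TGFbR-KO, at 1.74 and 2.22 in the larger and smaller TGFbR-WT sets and at 1.68 in TGFbR-CA. Skil, another induced inhibitor, was at 0.247, at 1.26 and 2.07, and at 1.58, and Ski was at 0.948, at 1.59 and 2.66, and at 1.82. The TGFbR-KO level was below both TGFbR-WT sets for each of them, and TGFbR-CA lay between the 2 sets for Skil and Ski and just below both for Smad7. Of the 4 compared genes of this list, 2 were lower in TGFbR-KO (Smad7 and Ski) and none higher, and of 5 in TGFbR-CA none was called. Skil and Pmepa1 (0.0427 against 0.739) fell under the level needed to be compared. In the other cells the ratio of TGFbR-KO to TGFbR-WT was 0.679 for Smad7, 0.643 for Ski and 0.357 for Skil.

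Ratios of the markers to their TGFbR-WT levels lay between 0.565 and 1.42. In TGFbR-KO against TGFbR-WT the ratio was 0.684 for S1pr1, 1.15 for Klf2, 0.869 for Itga4, 0.922 for Il7r and 1.22 for Emp3, and in TGFbR-CA it was 0.74, 0.846, 1.42, 0.565 and 0.91. Only Il7r in TGFbR-CA passed 1.5 times, and its level of 8.1 was close to the 8.43 of the smaller TGFbR-WT set, against 15.9 in the larger. The egress list had 1 gene higher of 16 (Cxcr3) and none lower in TGFbR-KO.

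Ly6a was at 9.47 in TGFbR-KO Migratory cells, 2.51 and 0.444 in the TGFbR-WT sets and 0.419 in TGFbR-CA. Id2, an inhibitor of E proteins, was at 13.5, at 8.76 and 1.78, and at 3.07, and the actinin gene Actn2 at 2.99, at 1.92 and 0.888, and at 0.932. Ly6a, Id2 and Actn2 were picked for standing above both TGFbR-WT sets in TGFbR-KO, so that agreement is not a finding. Picked by the same rule were Cox5a, Epsti1, Gmfg, Tagln2 and Cwc15, higher by 1.48 to 1.78 times against all TGFbR-WT Migratory cells. In the other cells Ly6a, Id2 and Actn2 were higher in TGFbR-KO as well, by 4.86, 1.75 and 2.51 times. In the opposite direction, Rgs10, a regulator of G protein signalling, was at 1.72 in TGFbR-KO, at 4.99 and 9.03 in the TGFbR-WT sets and at 7.78 in TGFbR-CA, and its ratio was about the same in the other cells (0.308 in Migratory, 0.292 in others). Rgs1 was at 0.921, at 2.62 and 2.52, and at 3.59, while the pooled other cells of TGFbR-KO and TGFbR-WT had about the same level (5.24 and 4.8). Within single identities Rgs1 was also lower in TGFbR-KO than in TGFbR-WT. It was at 4.39 against 9.34 in Activated, 0.519 against 0.965 in TR-TFH and 18.6 against 26 in Pre-tumorigenic cells. The pooled level depends on which identities the other cells hold, so the lower Rgs1 is not particular to Migratory cells. The arginine synthesis gene Ass1 was at 0.939, at 2.11 and 2.66, and at 1.91, with 0.552 against 0.725 in the other cells. The remaining genes lower by the same rule were Capg, Chd3, AU020206, Tma7 and Pdcd4, at ratios of 0.439 to 0.504. The ratios of TGFbR-KO to TGFbR-WT were thus 0.378 for Rgs1 and 0.448 for Ass1 in Migratory cells. In the pooled other cells they were 1.09 and 0.791. The contrast was not tested because each mutant is 1 library, and for Rgs1 it did not hold against the single identities given above.

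**Figure D5:**
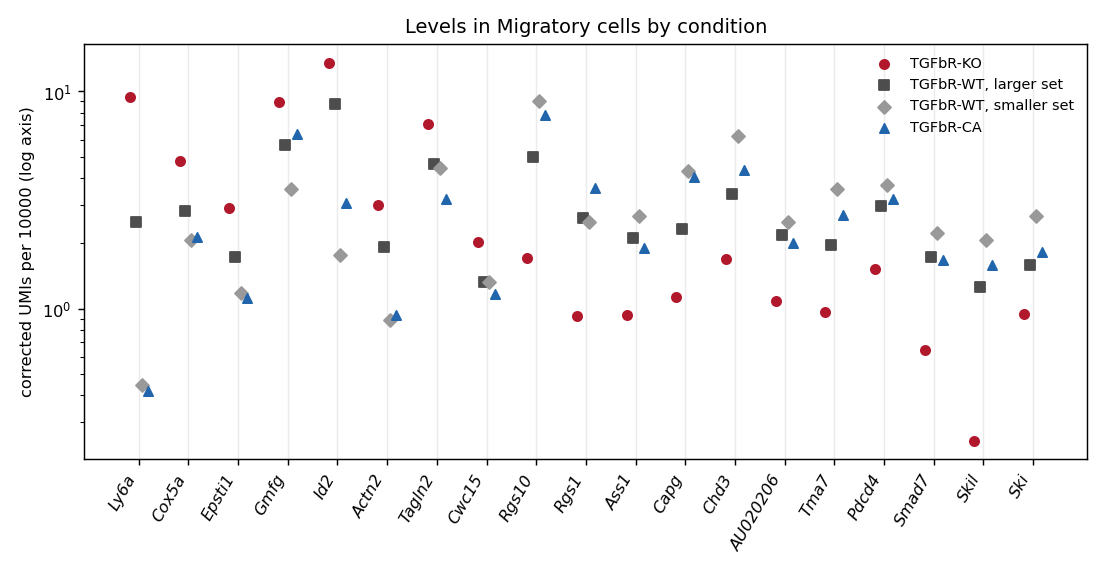
Level in Migratory cells on a log axis (corrected UMIs per 10000) for the 8 genes most higher and 8 most lower in TGFbR-KO than in both TGFbR-WT sets and for Smad7, Skil and Ski, with 1 point for TGFbR-KO, each TGFbR-WT set and TGFbR-CA. Rgs10 in TGFbR-CA (7.78) lay between the TGFbR-WT sets (4.99 and 9.03), and Ly6a in TGFbR-CA (0.419) was at the level of the smaller TGFbR-WT set (0.444).

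In TGFbR-CA Migratory cells the genes furthest above both TGFbR-WT sets were AY036118 (93.2 against 6.39 and 0.888), Gm42418 (497 against 37.4 and 32.3) and Lars2 (7.64 against 0.961 and 0.148). AY036118 and Gm42418 overlap on opposite strands, and whether reads of one were counted for the other was not tested. The same 3 were higher in the other TGFbR-CA cells by 21.2, 12.5 and 10 times, and Rps15 and mt-Nd3 were lower in Migratory cells (ratios of 0.395 and 0.293) and in the others (0.384 and 0.297). The GTPase regulator gene Tbc1d4 was at 4.1 against 1.63 and 1.33 and the cathepsin gene Ctsb at 5.17 against 2.44 and 2.22. Their ratios in the pooled other cells were 1.19 and 1.18. Within single identities, Tbc1d4 in TGFbR-CA against TGFbR-WT was at 3.86 against 1.37 in Pre-tumorigenic and 4.68 against 3.1 in Activated cells. Ctsb was at 4.42 against 3.55 and at 7.51 against 7.9 in these 2 identities. The higher Tbc1d4 is therefore not particular to Migratory cells. Egr1, an early response gene, was at 0.419 against 3.22 and 1.48, and Ier2 at 0.745 against 2.03 and 1.92. BC018473 was at 0 in the 52 cells, at 3.36 in the larger and at 0.148 in the smaller TGFbR-WT set. These TGFbR-CA values rest on about 21.5 corrected UMIs for each unit of level.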

How the data were processed

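The authors sequenced 10x 3′ libraries of sorted cells in 2 runs, one with TGFbR-KO and one with TGFbR-CA and each with TGFbR-WT cells, counted them with Cell Ranger 3.1.0 on mm10, and filtered, corrected (SCTransform), integrated and clustered them in Seurat. They then named the clusters and removed γδ T and epithelial cells, and no step against doublets is stated. The deposited values, of 13265 genes in 5080 cells, are the natural log of 1 plus the corrected UMI. Cell names with the prefix R: were taken as the TGFbR-KO library, titled RKO, and those with the prefix RCA: as the TGFbR-CA library. Values were returned to corrected UMIs, whole numbers within 1e-06. Since these are not raw counts, no count model, interval on levels or test was used, and the authors' test over cells was not repeated. Levels were summed over cells per 10000 corrected UMIs, compared after adding 0.1, over genes at 0.5 or more (1 or more between conditions, and in the division by S1pr1), and called at 1.5 times (Python 3.11.15, numpy 2.4.6, pandas 2.3.3, exact intervals from scipy 1.17.1). Intervals on shares cover counting error only, and a limit at 0 cells is 3 cells of the total.

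Named genes were the markers, list members and the 8 genes furthest above the next identity. The 12 genes highest and 12 lowest by their weakest condition at a level of 1 or more were also named. Against both TGFbR-WT sets, 8 (TGFbR-KO) or 5 (TGFbR-CA) each way were named, at a level of 2 or more in the higher group. The division by S1pr1 gave 6 each way, among genes with 1 direction in all 3 conditions. Genes set against Activated and TR-TFH cells, and Itga4, Il7r and Tcf7 in that division, were chosen after their values were seen. The members and the 20 gene lists, 320 genes in all, were chosen with earlier results of these data known. Coordinates come from GENCODE vM21 on GRCm38 (mm10), matched for all 341 genes looked up. Scripts were tested on simulated data. Some genes of the lists are not reported here by name.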

Additional observations from a re-analysis of the deposited data

How the results depend on the processing

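No paired analysis was possible because each mutant is 1 library and the name endings of TGFbR-WT cells could not be matched to the numbered TGFbR-WT libraries. With 1 library a mutant, the spread between mice is unknown, and for the TGFbR-CA and smaller TGFbR-WT cells few UMIs lie behind each low level, so absence of a call there says little. Counts of called genes depended on the settings, and so did which direction held more of them: on the natural log scale more genes were higher than lower in each condition. No marker ratio turned in the settings run, but 38 of them moved in size and 122 stayed the same. With a filter of 0.2 per 10000, lower genes in TGFbR-KO numbered 253, TGFbR-WT had 356 higher and 645 lower and TGFbR-CA 398 and 838. With a filter of 1, higher and lower genes numbered 50 and 92 in TGFbR-KO, 73 and 144 in TGFbR-WT and 56 and 152 in TGFbR-CA, and with no filter 162 and 410, 709 and 1189, and 868 and 1680. Adding 0.5 in place of 0.1 left 55 higher in TGFbR-KO, 104 higher and 143 lower in TGFbR-WT and 87 and 144 in TGFbR-CA. Means of the deposited natural log values left 19 and 7, 25 and 8, and 20 and 3. The smaller TGFbR-WT set alone gave 329 higher and 711 lower genes and a Migratory share of 5.37%. Between conditions, a filter of 2 gave 14 higher and 26 lower genes in TGFbR-KO and 22 and 69 in TGFbR-CA, no filter 484 and 1042, and 1174 and 2096, adding 0.5 gave 13 and 51 in TGFbR-KO and 46 higher in TGFbR-CA, the natural log scale 6 and 5, and 18 and 13, and the smaller TGFbR-WT set 187 and 374, and 150 and 362. Filters and the smaller set change the number of genes and cells by construction. Weighting identities equally, leaving out shared barcodes or the 5% of cells with the most detected genes, and adding nothing kept every count over all genes within 1.5 times. So did leaving Tumorigenic and Pre-tumorigenic cells out, which was added after the data were seen (TGFbR-KO 110 higher and 107 lower). There, however, higher genes outnumbered lower ones in TGFbR-KO, and counts within some lists moved further. In TGFbR-KO, lower immediate early and heat shock genes went from 16 to 0. Higher S100, annexin, galectin and actin genes went from 7 to 14, while higher egress genes stayed at 9. In TGFbR-WT, tissue residence genes went from 2 higher and 4 lower to 3 and 1. Immediate early and heat shock genes went from 0 and 8 to 1 and 0 in TGFbR-WT.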
